A study of Mus musculus with 6 samples.

Results

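The genes of DNA replication and nucleotide synthesis described here are 41 mouse genes chosen by name: the subunits of the replicative helicase, the factors that load it, the sliding clamp and its loader, the single-strand binding protein RPA, the polymerases and primase, the enzymes of strand maturation, the enzymes that make deoxynucleotides, and the factors that rebuild chromatin on new DNA. All array probes that carry 1 of these names were taken, which gave 56 probes. All 41 genes were among the 32053 gene names of the array, and all 41 had at least 1 probe that passed the filter on dim signals (53 probes in all, each well above background on all 6 arrays). Where a gene had several tested probes, the brightest stands for it.

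RNA was measured on 6 single-colour Agilent arrays of the pre-B cell line 1676. This line is SLP-65-/- LAT-/-, that is, it lacks 2 adaptor proteins that relay signals of the pre-B cell receptor, and it stops at the pre-B stage and proliferates in the growth factor IL-7. All cells carried a retroviral vector, had been selected with puromycin and were kept in IL-7. Of the arrays, 2 came from cells with an empty control vector and 2 from cells that overexpress miR-26a, labelled as the human hsa-miR-26a-2. The other 2 came from cells with a miR-26 sponge, an RNA with repeated miR-26 binding sites that is meant to bind up the endogenous miR-26 family. The 2 arrays of a group are 2 experiments with cell clones made separately, all of 1 line. The limma fit used below takes out what arrays of the same replicate number share. Its p-values thus measure only the spread that is left, not the whole spread between the 2 experiments. The control group held an empty vector and no scrambled sponge. The mature miRNA and the sponge RNA are not measured by the probes used here.

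A cell copies its genome once per division. Helicase rings made of Mcm2 to Mcm7 are placed on DNA in G1 by Cdc6 and Cdt1, which geminin (Gmnn) holds in check after S phase begins. The rings are activated with the GINS complex, RPA covers the opened strands, primase with polymerase alpha starts each strand, and the clamp Pcna, set in place by the Rfc loader, tethers polymerases delta and epsilon. Deoxynucleotides come from ribonucleotide reductase (Rrm1, Rrm2), thymidylate synthase (Tyms) and thymidine kinase (Tk1). Many of these genes are transcribed around the start of S phase under E2F factors, and pre-B cells in IL-7 are among the rapidly dividing lymphoid cells. In RNA of a whole culture, fewer cells in S phase and less RNA per cell cannot be told apart.

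The overexpressed and the sponged miRNAs are shown first, since they define the groups. The mouse forms are given, although the overexpressed miR-26a was labelled as the human one. Their mature sequences (RefSeq) share the seed, bases 2 to 8, in capitals:
mmu-miR-26a-5p: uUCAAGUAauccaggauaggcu
mmu-miR-26b-5p: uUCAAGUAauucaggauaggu
The letters that pair with this seed, TACTTGA, were looked for in the sense sequence of the array probes. They were in 1 of the 53 tested probes of the 41 genes, a probe of Rpa1, the large RPA subunit, and in 89 of all 20168 tested probes (0.441%). The probes cover only a short stretch of each transcript, so these counts do not say which transcripts hold a site.

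The promoters are shown because many of these genes are known targets of E2F factors. RefSeq promoter windows (build GRCm38.p6, 250 bases before to 50 after the annotated start) were given for 34 of the 41 genes, with 40 windows. The E2F words TTTCCCGC, TTTCGCGC, TTTGCCGC and TTTGGCGC were searched on both strands. At least 1 was found in 15 of the 40 windows (37.5%), from 15 genes, and in 744 of all 32851 windows (2.26%). The words of the genes that load or form the helicase ring are shown with their flanks, read along the gene's strand with the word (or its reverse complement) in capitals:
Mcm3 (chr1:20820275-20820304, minus strand): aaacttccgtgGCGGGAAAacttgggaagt
Mcm3 (chr1:20820263-20820285, minus strand): acttgggaagtTTTGGCGCcaag
Mcm5 (chr8:75109345-75109374, plus strand): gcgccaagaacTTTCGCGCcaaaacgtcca
Mcm6 (chr1:128359797-128359826, minus strand): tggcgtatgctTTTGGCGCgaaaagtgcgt
Mcm6 (chr1:128359734-128359763, minus strand): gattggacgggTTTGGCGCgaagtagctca
Mcm7 (chr5:138172030-138172059, minus strand): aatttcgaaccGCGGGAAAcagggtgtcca
Mcm7 (chr5:138171849-138171878, minus strand): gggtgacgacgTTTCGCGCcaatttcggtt
Cdc6 (chr11:98908002-98908031, plus strand): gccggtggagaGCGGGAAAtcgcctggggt
Cdt1 (chr8:122568036-122568064, plus strand): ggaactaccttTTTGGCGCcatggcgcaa
In Mcm5 and in Mcm6 a second word on the other strand overlaps one of those shown. Rfc3, a loader subunit, Pola1, Pold1, Pold3 and Pole2 of the polymerases, Lig1, Gins3, Mcm8 and Uhrf1 also held a word. The window of Mcm2 held none, nor did those of Pold2, Tyms and Tk1. The shorter word CCAAT, bound by NF-Y, was in 23 of the 40 windows (57.5%) and in 37.4% of all windows. A match of letters is not a binding site.

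**Figure D1:**
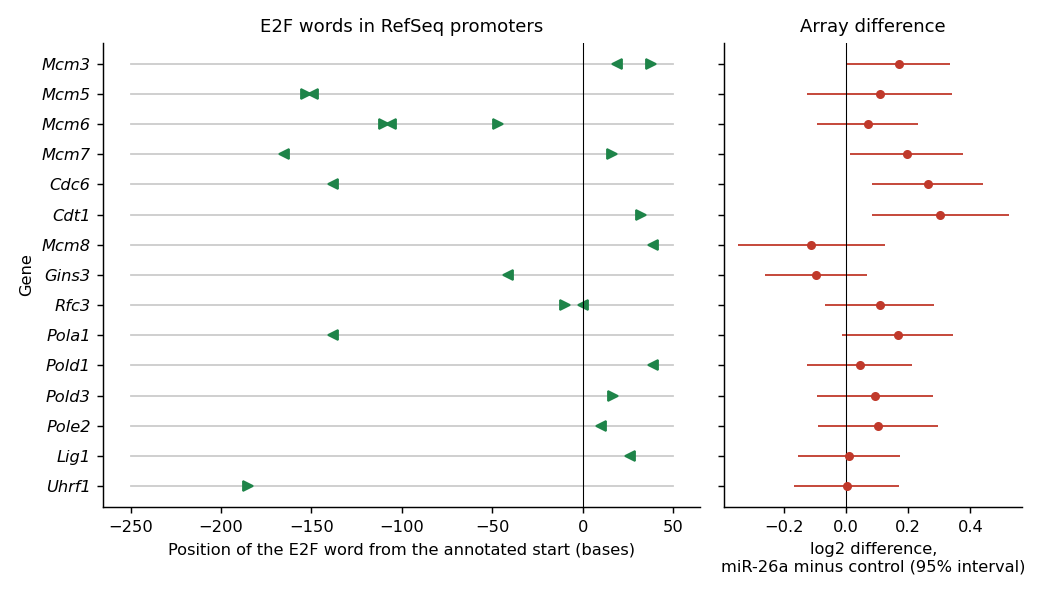
Left, position of each E2F word from the annotated start in bases (triangles, pointing right for the strand of the gene and left for the other strand) in the 15 genes whose promoter window held one. Right, log2 difference between miR-26a and control arrays of the same genes with its 95% interval. The words lie between 185 bases before and 39 bases after the start, and 13 of the 15 differences are above 0. Among genes with a window and no word, which are not shown, 16 of 19 are above 0.

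All 6 arrays lay on 1 slide and had 48.6% to 50.2% of their spots well above background, none saturated. The 9 pre-B marker genes used (among them Cd79a, Pax5 and Vpreb1) were well above background on all 6 arrays. Of the markers of other cells, 2 of 7 T cell genes (Cd3e and Cd4), 3 of 6 myeloid genes (Csf1r, Elane and Itgam) and 2 of 3 erythroid genes (Epor and Klf1) were above background on all arrays, while Cd3g, Cd8a, Cd8b1, Cd14 and Hbb-b1 were above it on none. The summed signal of the myeloid list was 11.79 and 12.16 on a log2 scale in the control arrays, 11.89 and 12.15 with miR-26a and 11.53 and 12.10 with the sponge. The summed pre-B list ran from 18.82 to 18.96 over all arrays, and the groups overlapped in both of these lists. Of the pre-B markers Dntt, the terminal transferase that adds bases at V(D)J junctions, fell with miR-26a: it was at 12.88 and 12.76 in the control arrays, 11.62 and 11.79 with miR-26a and 12.91 and 12.87 with the sponge, a log2 difference of -1.12 from the control (adjusted p by limma 0.00538) and -1.19 from the sponge (0.00314). No other marker tested passed the adjusted threshold in any comparison. The summed T cell list ran from 10.35 to 10.50 over the control and miR-26a arrays and was lower with the sponge (10.08 and 10.24). The erythroid list was dim throughout, at 5.40 and 5.56 in the control arrays and 5.59 to 5.82 in the others. The part of these markers in the results below was not tested.

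With miR-26a, the replication genes as a group lay slightly above the control, and no single gene passed the threshold. The median log2 difference of the 41 genes was 0.07, against 0.01 for all 20168 tested probes, and it was 0.07 in the first experiment and 0.08 in the second. Of the 41 genes, 32 (78.0%) lay above 0, against 53.2% of all probes. The 41 genes are bright: on the first control array their mean log2 signal was 13.57, where the median of all tested probes was 9.80. The shares over all probes, here and below, were not matched for signal. The differences were small: they ran from -0.26 for Prim2 to 0.36 for Tyms, and none reached 0.5 in size.
By limma's moderated test with the experiment as a block and Benjamini-Hochberg adjustment over all probes, 0 of the 41 genes passed an adjusted p of 0.05, while 9.72% of all probes did. The smallest adjusted p-values of limma were 0.0597 for Tyms, 0.0665 for Pold2 and 0.0670 for Prim2. At an unadjusted p under 0.05, 7 genes were higher (Mcm2, Mcm3, Mcm7, Cdc6, Cdt1, Pold2 and Tyms), or 17.1%, against 14.5% of all probes. Prim2 alone was lower at that level, 2.44% of the genes against 12.8% of all probes. The unpaired t-test that the study names elsewhere passed 0 of all 20168 probes after adjustment, so it gives no information on these genes.
Both miR-26a arrays lay above both control arrays for 21 of the 41 genes (51.2%), against 26.9% of all probes. Both lay below for 5 genes (12.2%), Gmnn, Mcm8, Gins3, Rfc2 and Prim2, against 22.6% of all probes. The intervals of the 41 differences had half-widths of 0.16 to 0.24, so at 2 arrays a group differences of this size are near the limit of what can be seen.

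**Figure D2:**
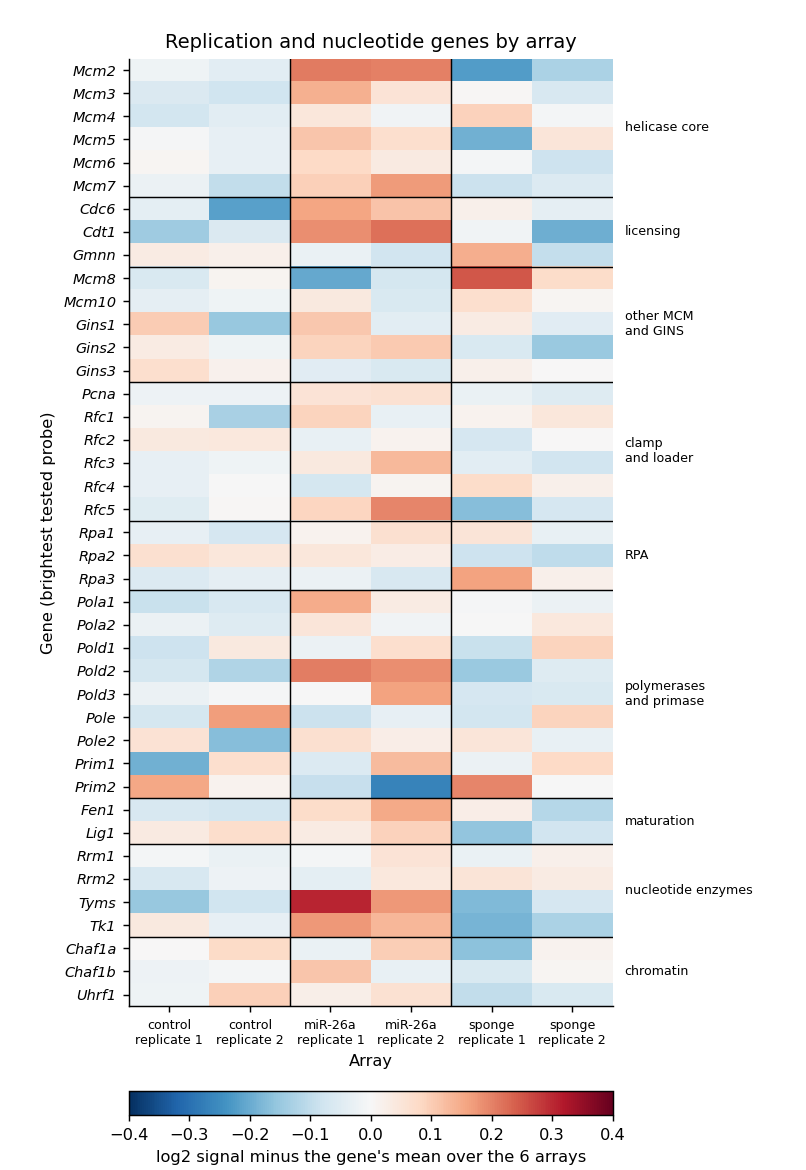
Log2 signal of each of the 41 genes (rows, grouped by role) on each of the 6 arrays (columns), as the difference from the gene's own mean over the arrays. Red cells are above and blue cells below that mean, and the 2 miR-26a columns are red for all 6 helicase genes except Mcm4, which is near 0 on the second miR-26a array.

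With the sponge, the group stayed at the level of the control. The median log2 difference was below 0.01 in size, at -0.0039 against 0.0081 for all probes, and with 75th percentile scaling it was 0.057 against 0.042 for all probes. By limma 0 of the 41 genes passed the adjusted threshold, where 0.00992% of all probes did (the t-test passed 0 of all probes). At an unadjusted p under 0.05, 1 gene was lower, the DNA ligase Lig1 (2.44%, against 8.33% of all probes), and 0 were higher (against 7.65%). Sponge arrays lay entirely above the control arrays for 11 genes (26.8%, against 17.9% of all probes) and entirely below for another 11 (26.8%, against 20%). On the brightest probes the differences ran from -0.17 for Lig1 to 0.19 for Mcm8. The largest interval bound of these was 0.42 in size. Second, dimmer probes went further, none past the adjusted threshold: -0.44 for Tk1 (interval -0.64 to -0.24), -0.24 for Uhrf1 and 0.25 for Mcm8 (interval 0.02 to 0.48). Of all 53 tested probes of the genes, 3 were lower and 1 was higher at an unadjusted p under 0.05 by limma.

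Set directly against the sponge, miR-26a arrays were higher for Mcm2, Pold2, Tyms and Tk1 and lower for Prim2. These 5 of 41 genes (12.2%) passed limma's adjusted threshold, against 16.8% of all probes, so the share of calls among the replication genes was no higher than on the whole array. The median of the 41 genes was 0.10, against 0.02 for all probes, and 30 genes (73.2%) lay above 0, against 53.4% of all probes. With 75th percentile scaling this median was 0.047, with 24 genes above 0, and with normexp background correction it was 0.045. At an unadjusted p under 0.05, 9 genes were higher (22.0%, against 18.5%) and 2 were lower (4.88%, against 15.9%). Both miR-26a arrays lay above both sponge arrays for 20 genes (48.8%, against 27.9%) and below for 5 (12.2%, against 23.1%). This comparison and that with the control use the same miR-26a arrays, so they do not stand for each other.
The 5 calls depend on all arrays being present. Without control replicate 1, control replicate 2, miR-26a replicate 1, sponge replicate 1 or sponge replicate 2, 0 of the 41 genes passed, and without miR-26a replicate 2 only Tyms did. Without the replicate block 0 passed as well, where 633 of all 20168 probes passed as lower and 358 as higher. In each of these fits fewer of all probes passed, too, than in the main fit. The direction of each of the 5 was the same in all 15 alternatives run, but in several of them it could not change. Dropping the block, the t-test, the other filters and leaving out a control array keep the log2 difference as it is. Over the 15, it ran from 0.317 to 0.435 for Mcm2, 0.229 to 0.36 for Pold2 and 0.248 to 0.47 for Tyms. For Tk1 it ran from 0.237 to 0.472 and for Prim2 from -0.295 to -0.234.

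**Figure D3:**
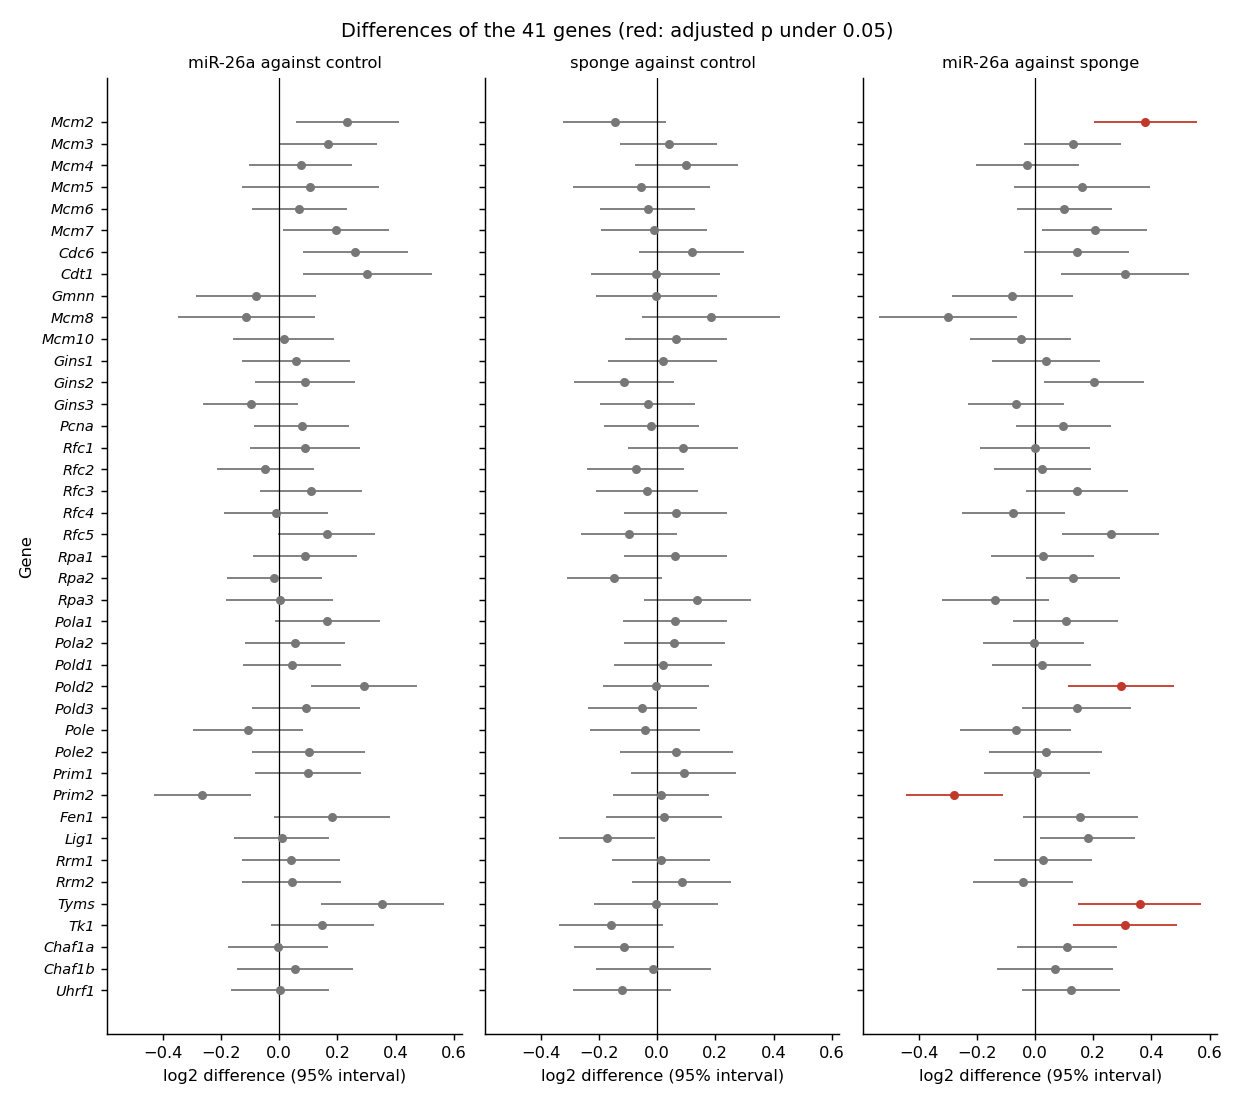
Log2 difference of each of the 41 genes in the 3 comparisons, with the 95% interval of limma's fit. Red points are the 5 genes with an adjusted p under 0.05, all in the comparison of miR-26a with the sponge (Mcm2, Pold2, Tyms and Tk1 above 0, Prim2 below 0), and the points of miR-26a against control lie mostly right of 0.

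**Figure D4:**
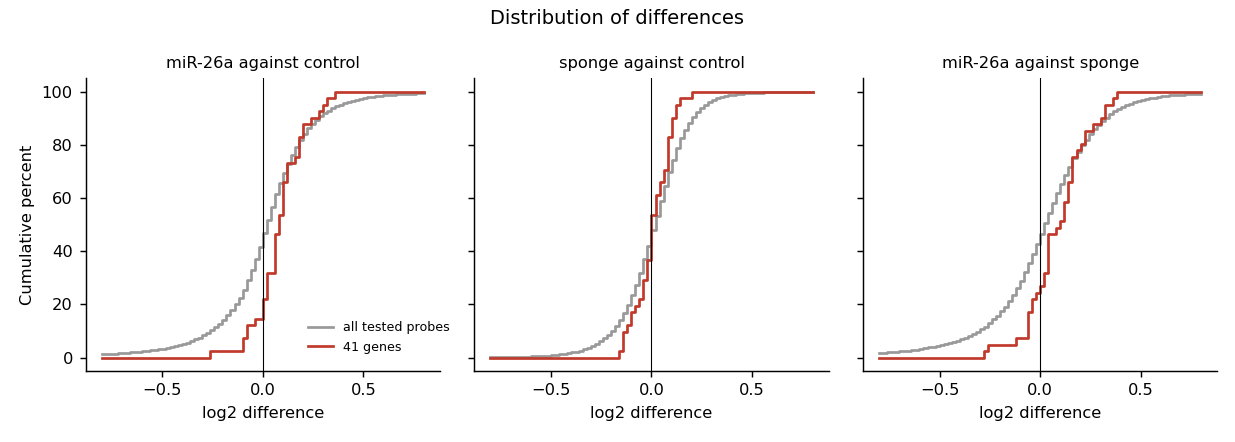
Cumulative percent of the 41 genes (red) and of all 20168 tested probes (grey) by log2 difference, in the 3 comparisons. The red curve lies right of the grey one for low values in all 3 comparisons and has short tails. It crosses the grey one near 0 for sponge against control and above 0 in both comparisons of miR-26a. It holds the brightest probe of each gene, and none of these differed by 0.5 or more. A second, dimmer probe of Tk1, which is not in the red curve, differed by 0.63 between miR-26a and sponge.

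Among the helicase genes, Mcm2 differed most. Its log2 signal was 13.22 and 13.19 in the control arrays, 13.44 and 13.44 with miR-26a, and 13.01 and 13.11 with the sponge (probe at chr6:88833619-88833678 in the design's build, mm9). The 3 groups did not overlap, with miR-26a highest and the sponge lowest. The difference between miR-26a and sponge was 0.38 ± 0.07 (SE, 2 arrays a group), a 1.30-fold difference with a 95% interval of 0.20 to 0.56, and its adjusted p by limma was 0.0240. Against the control the differences were 0.23 with miR-26a (adjusted p by limma 0.103) and -0.15 with the sponge (0.375).
The other 5 ring subunits differed less. Against the control all 6 subunits were above 0 with miR-26a, from 0.07 for Mcm6 to 0.23 for Mcm2, and both miR-26a arrays lay above both control arrays for all 6. Mcm7 stood at 15.80 and 15.72 in the control arrays, 15.92 and 15.99 with miR-26a and 15.73 and 15.76 with the sponge, and Mcm4 at 15.38 and 15.41, then 15.50 and 15.44, then 15.55 and 15.45. Mcm4 was thus the ring subunit whose miR-26a arrays did not lie above its sponge arrays, and its difference between these groups was -0.03. No subunit other than Mcm2 passed the adjusted threshold in any comparison.

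The licensing factors Cdc6 and Cdt1, which load the ring, were both higher with miR-26a than in the control on every array, without passing the threshold. Cdt1 was at 14.78 and 14.86 in the control, 15.11 and 15.14 with miR-26a and 14.91 and 14.72 with the sponge. The miR-26a arrays lay above all other arrays, and control and sponge overlapped. The difference from the control was 0.30 ± 0.09 (SE, 2 arrays a group), with an adjusted p by limma of 0.0947, and the difference from the sponge was 0.31 (0.0695). Cdc6 was 0.26 above the control (interval 0.08 to 0.44) on the brighter of its probes and 0.24 on the other.
Geminin, the inhibitor of Cdt1, gave different answers on its 2 probes. The brighter probe was 0.08 below the control with miR-26a, while the dimmer one was 0.36 above it, with an adjusted p by limma of 0.0832. The array design lists the 2 probes (mm9, chromosome 13) in opposite orientations, and no direction is given for geminin.

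**Figure D5:**
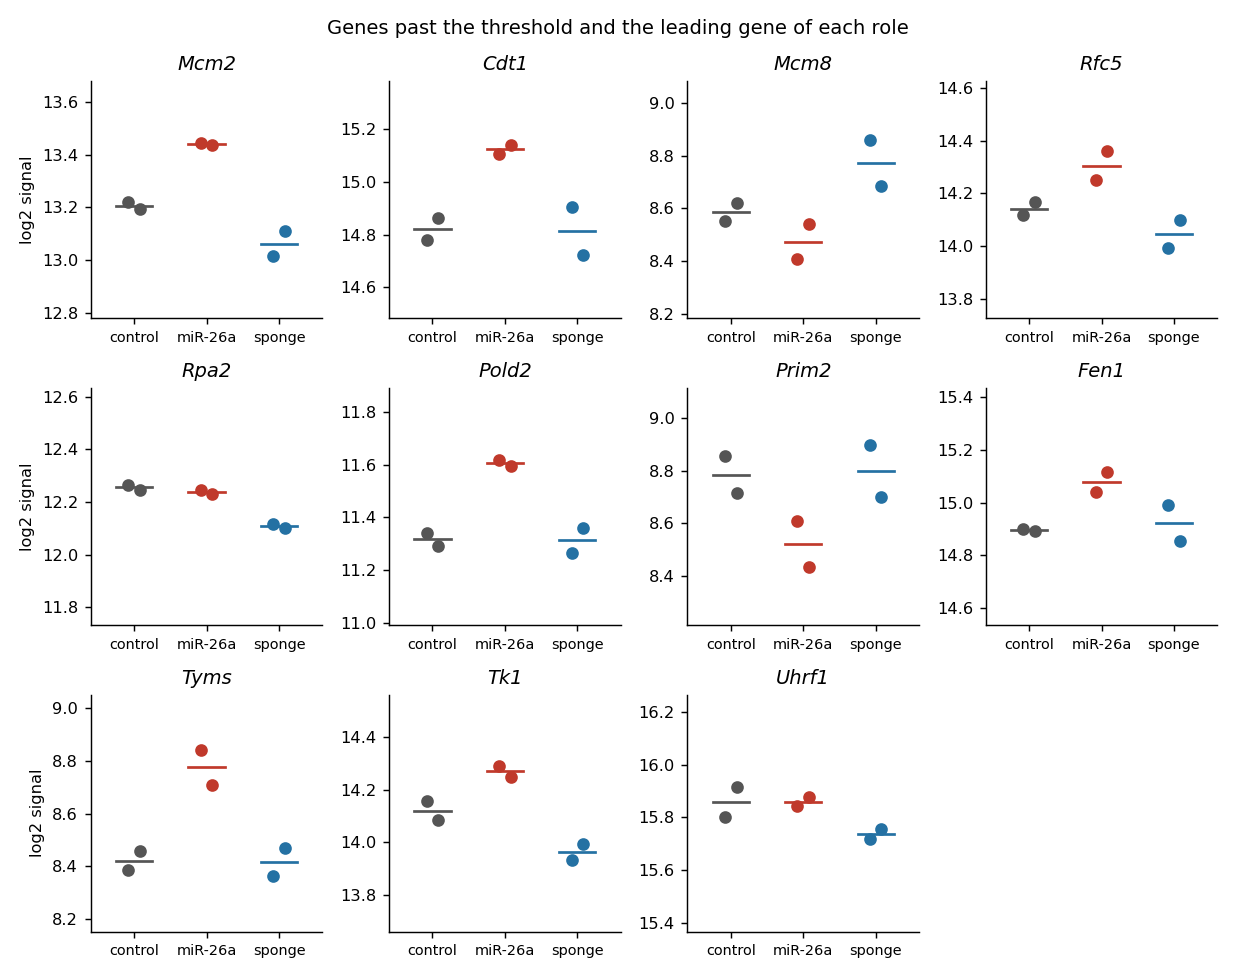
Log2 signal of 11 genes on each array (points) and the mean of each group (lines): the 5 genes with an adjusted p under 0.05 and the gene with the largest difference in each role. Each panel spans the same range of log2 units around its own centre, and the miR-26a points of Mcm2, Cdt1, Rfc5, Pold2, Fen1, Tyms and Tk1 lie above all other points of their panel, while those of Prim2 and Mcm8 lie below all others.

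Of the other helicase-related genes, Mcm8, which acts in recombination rather than in the replicative ring, went the other way. It was at 8.55 and 8.62 in the control, 8.41 and 8.54 with miR-26a and 8.86 and 8.68 with the sponge. The groups did not overlap on this brighter probe, with the sponge highest, while on the second probe the control overlapped both other groups. The difference of Mcm8 between miR-26a and sponge was -0.30 on the brighter probe and -0.28 on the other, with adjusted p-values by limma of 0.0881 and 0.0968. Gins2 was 0.20 higher with miR-26a than with the sponge (adjusted p by limma 0.103), and Gins1, Gins3 and Mcm10 differed by at most 0.10 in size in any comparison.

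In the clamp and its loader, Rfc5 led. It was at 14.12 and 14.17 in the control, 14.25 and 14.36 with miR-26a and 13.99 and 14.10 with the sponge. Again the groups did not overlap on this bright probe, with miR-26a highest. The difference of Rfc5 between miR-26a and sponge was 0.26 on it (interval 0.09 to 0.43, adjusted p by limma 0.0527). A dim second probe gave 0.13, and there miR-26a and control overlapped. The clamp Pcna was at 16.54 and 16.55 in the control, 16.62 and 16.62 with miR-26a and 16.54 and 16.51 with the sponge, a difference of 0.08 from the control whose interval ran from -0.09 to 0.24. Of the RPA subunits, Rpa2 differed most. It was at 12.27 and 12.25 in the control, 12.25 and 12.23 with miR-26a and 12.12 and 12.10 with the sponge, so its sponge arrays lay below all others, with an adjusted p by limma of 0.342 against the control.

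The polymerase and primase genes held calls in both directions. Pold2, the second subunit of polymerase delta (probe at chr11:5773086-5773145, mm9), was at 11.34 and 11.29 in the control, 11.62 and 11.60 with miR-26a and 11.27 and 11.36 with the sponge. Only the miR-26a arrays stood apart. Its differences were 0.29 ± 0.07 against each of the other groups (SE, 2 arrays a group), and the adjusted p-values by limma were 0.0665 against the control and 0.0481 against the sponge.
Prim2, the large primase subunit (probe at chr1:33510733-33510792, mm9), was at 8.85 and 8.71 in the control, 8.61 and 8.43 with miR-26a and 8.90 and 8.70 with the sponge. Its miR-26a arrays were the 2 lowest. The difference from the sponge was -0.28 ± 0.07 (SE, 2 arrays a group; adjusted p by limma 0.0447). A second, dimmer probe gave -0.19 with an interval of -0.62 to 0.24. Among the alternatives run, the call of Prim2 was kept only with the authors' quantile-normalized values and with the stricter filter. It was lost with normexp background correction and with the probes of a gene averaged. Prim1, the catalytic subunit that works with Prim2, was 0.01 above the sponge and 0.10 above the control with miR-26a. On their brightest probes Pola1, Pola2, Pold1, Pold3, Pole and Pole2 differed by at most 0.17 in size in any comparison. A second, dimmer probe of Pole gave -0.19 between miR-26a and sponge. Between sponge and control this probe gave 0.15, where the brighter one gave -0.04.

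Of the maturation enzymes, which remove primers and seal the strand, Fen1 was at 14.90 and 14.89 in the control, 15.04 and 15.12 with miR-26a and 14.99 and 14.85 with the sponge, a difference of 0.18 from the control (adjusted p by limma 0.219). Lig1 was at 15.82 and 15.85, then 15.81 and 15.87, then 15.62 and 15.70. Fen1 thus stood apart with miR-26a and Lig1 with the sponge, neither past the threshold.

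The nucleotide enzymes held the other 2 calls. Tyms, which makes thymidylate (probe at chr5:30385578-30385637, mm9), was at 8.38 and 8.46 in the control, 8.84 and 8.71 with miR-26a and 8.36 and 8.47 with the sponge. Control and sponge overlapped, and miR-26a was higher. The difference from the sponge was 0.36 ± 0.09 (SE, 2 arrays a group), 1.28-fold, with an adjusted p by limma of 0.0438. Against the control (adjusted p by limma 0.0597) it passed with normexp background correction, as did Pold2, with the stricter filter and without miR-26a replicate 2.
Tk1, which salvages thymidine, had 2 tested probes, and both passed limma's adjusted threshold between miR-26a and sponge. The brighter (chr11:117676845-117676904, mm9) was at 14.16 and 14.09 in the control, 14.29 and 14.25 with miR-26a and 13.93 and 13.99 with the sponge, and the dimmer (chr11:117683390-117683449) at 12.61 and 12.67, then 12.82 and 12.86, then 12.08 and 12.32. On both probes miR-26a was highest and the sponge lowest, with no overlap between groups. The differences between miR-26a and sponge were 0.31 and 0.63, with adjusted p-values by limma of 0.0415 and 0.00937. The direction of Tk1 was thus the same on both probes and the size was not. On the dimmer probe the sponge was 0.44 below the control, with an adjusted p by limma of 0.218.
The ribonucleotide reductase genes, Rrm1 and Rrm2, differed by at most 0.08 in size in any comparison. In the chromatin group, Uhrf1, which reads hemimethylated DNA behind the fork, was at 15.80 and 15.91 in the control, 15.84 and 15.88 with miR-26a and 15.72 and 15.76 with the sponge, so that the sponge arrays were the lowest. The difference of Uhrf1 between miR-26a and sponge was 0.12 on this brighter probe (adjusted p by limma 0.259) and 0.13 on a dimmer one. Between miR-26a and control the 2 probes differed in sign, with 0.0025 on the brighter and -0.11 on the dimmer. Chaf1a and Chaf1b, which deposit histones on new DNA, differed by at most 0.11.

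The 15 genes with an E2F word had a median difference of 0.10 between miR-26a and control, and the 19 genes with a window and no word had 0.08. Between miR-26a and sponge the medians were 0.13 and 0.07, and the 4 higher calls all fell among the genes without the word, while Prim2 had no window. These are descriptions, with no test.

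Around these 41 genes, 67 of 68 further genes of replication and nucleotide supply had a tested probe. With miR-26a against control, limma's adjusted test passed 9 of them (13.4%, against 9.72% of all probes), 6 higher and 3 lower. With the sponge against control it passed 0, and with miR-26a against sponge 10 (14.9%, against 16.8% of all probes), 6 higher and 4 lower. The median of the 67 was 0.05 between miR-26a and control.
Dck, the kinase that salvages deoxycytidine, was at 12.02 and 11.84 in the control, 11.40 and 11.35 with miR-26a and 12.20 and 11.95 with the sponge. Its miR-26a arrays lay below all others. It fell by 0.55 against the control (adjusted p by limma 0.0162) and by 0.70 against the sponge (0.00656). Mthfd1, an enzyme of the folate cycle that feeds purine and thymidylate synthesis, was at 12.69 and 12.43, then 13.15 and 12.97, then 12.71 and 12.53, a rise of 0.50 against the control (adjusted p by limma 0.0149).
Cad, which starts pyrimidine synthesis, and Dctd, which deaminates deoxycytidylate to feed Tyms, rose by 0.75 and 0.80 against the control (adjusted p by limma 0.0201 and 0.0267), both on dim probes near the signal minimum of 50. Dna2, a nuclease of primer removal, was 0.32 higher (0.0404), and the topoisomerase Top1 was 0.41 lower (0.0445). Against the sponge, Impdh1, the first enzyme of guanine nucleotide synthesis, was 0.44 higher (adjusted p by limma 0.0180) and Ctps2, a CTP synthase, 0.44 lower (0.0186).
The 21 genes of one-carbon, purine and pyrimidine synthesis had a median difference of 0.21 between miR-26a and control, with 16 above 0. Among these 21 genes 2 were called, Cad and Mthfd1, both higher. Of all probes 9.72% were called, so the share of calls was no higher than on the whole array. The 6 origin recognition genes had a median of 0.04 and 0 calls, and the 8 tested genes of origin firing had -0.01 and 0 calls. With any 1 array left out, fewer of all probes passed in both comparisons of miR-26a than with all 6 arrays. Without control replicate 1 or control replicate 2, 0 of the 67 genes passed against the control, and without miR-26a replicate 1, sponge replicate 1 or sponge replicate 2 there were 4. Against the sponge, 0 passed without sponge replicate 1 or sponge replicate 2, 4 without miR-26a replicate 2 and 6 without each of the other 3 arrays in turn.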

How the data were processed

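Per spot, the authors deposited scanner files (Agilent Feature Extraction 10.7.1.1) with a background-subtracted intensity and quality flags. The authors also deposited a table of quantile-normalized intensity values on a linear scale, which matched the values made here at a correlation of at least 0.999997 after log2 and was used as an alternative. Gene names and coordinates are those of the array design (mm9). Here, flagged and control spots were left out, the processed intensities were quantile-normalized, log2-transformed and averaged per probe. The filter asked for 1 or more arrays with the probe well above background and 4 or more with a processed intensity over 50, and 20168 of 55681 probes met it. The number of arrays limits the precision, and replicates of a group correlated at 0.9957 to 0.9974.

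A limma model (version 3.58.1, R 4.3.3) held all 6 arrays, with group and replicate number (the block) as terms and Benjamini-Hochberg adjustment over all tested probes. The methods describe the experiments as paired with their own control, and deviations from the group means correlated between same-numbered arrays (0.38, 0.59 and 0.45 for the 3 pairs of groups). The titles of the control arrays hint at an earlier series, so this pairing rests on the labels. Alternatives were no block, the unpaired t-test of a legend, 75th percentile scaling, normexp correction (offset 50), the authors' table, 3 other filters, probes averaged per gene, and each array left out. The fit was tested on simulated data. Tables were made with pandas 2.3.3 and numpy 2.4.6, and plots with matplotlib 3.10.9.

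The 41 genes, the 68 further genes and the marker lists were chosen with earlier results of these data known. Every one of the 41 genes is reported. Values per array are given for those past an adjusted p of 0.05 and for the gene with the largest difference in each role, with a few others. Of the further genes, the 8 with the smallest adjusted p are named, 2 of them with values per array. Promoters and miRNAs are RefSeq sequences. Promoter windows of 7 of the 41 genes, and the mm9 genome, were not used here. Of the marker lists fixed for the cell types, 2 genes are not reported here and were left out of the sums.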

Additional observations from a re-analysis of the deposited data

How the results depend on the processing

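With 2 arrays a group, calls near the threshold turn on small choices. The median of the 41 genes was above 0 in both comparisons of miR-26a under every alternative run, and so was the smaller median of all probes. Several alternatives could not change the median of the 41 genes: no block, the other filters, and leaving out an array of the group not compared. The calls of the genes were not stable. Of 1845 values of single genes under an alternative, 52 lost and 7 gained the adjusted threshold of limma or the t-test. No call changed direction. All 52 losses fell on the 5 genes called in the main fit, all between miR-26a and sponge. The values of the other genes and comparisons had no call to lose. Of the 15 alternatives, Mcm2 and Tyms kept their call in 6 each, Tk1 in 5, Pold2 in 4 and Prim2 in 2. The replicate block was needed for the calls: without the replicate block 0 of the 41 genes passed in each comparison. Of the 67 further genes, 0 passed between miR-26a and control and 3 between miR-26a and sponge. Few of all 20168 probes passed there as well: 238 lower and 74 higher between miR-26a and control, and 633 lower and 358 higher between miR-26a and sponge. The unpaired t-test passed 0 of all 20168 probes, and limma without a filter on dim probes 0 of all 55681, in every comparison, so neither says anything about the 2 lists, of which 0 genes passed.

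Between miR-26a and control, normexp background correction passed 2 of the 41 genes (Tyms and Pold2) and 14 of the 67, and the stricter filter passed 1 of the 41 (Tyms). Of all 20168 probes, normexp passed 1199 as lower and 1109 as higher. The stricter filter passed 1092 and 1082 of 19315. With 75th percentile scaling the median of the 41 genes was 0.091 between miR-26a and control, 0.057 between sponge and control and 0.047 between miR-26a and sponge. In the last comparison 24 of the 41 genes then lay above 0, with 2 calls (Mcm2 and Tyms), and the median was 0.045 with normexp. The looser filter left 2 calls there (Mcm2 and Tk1). Of all 20168 probes, 1741 passed there as lower and 1485 as higher with 75th percentile scaling. With the looser filter these were 1607 and 1473 of 20905.

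Leaving out each array in turn gave 0 to 1 calls among the 41 genes between miR-26a and control and 0 to 1 between miR-26a and sponge. In both of these comparisons fewer of all probes passed as well than with all 6 arrays. The medians of the 41 genes ran from 0.0587 to 0.0738 between miR-26a and control and from 0.0703 to 0.0969 between miR-26a and sponge. Between sponge and control they ran from -0.0052 to 0.0129. The 67 further genes gave 0 to 6 calls in each comparison of miR-26a.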
